A study of Mus musculus with 34 samples.

Results

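The liver answers the loss of tissue within hours, and the first hours after partial hepatectomy (PHx, surgical removal of the left lateral and median lobes) are known as the priming phase. The comparison described here is that of SIRT1intKO livers collected 6 hours after PHx (5 livers) with SIRT1intKO livers at 0 hours (6 livers), 11 of the 34 liver libraries of the study, chosen by their labels. SIRT1intKO mice lack the NAD+-dependent deacetylase SIRT1 in the intestinal epithelium, through a Villin-Cre transgene acting on floxed *Sirt1*, so that hepatocytes keep the gene. The control mice (WT) were floxed littermates without Cre, with 6 livers at 0 hours and 6 at 6 hours. Livers at 0 hours came from untreated animals and no sham operation was included. Surgery, anaesthesia, handling and time of day therefore cannot be told apart from the loss of liver mass. Library names at 0 hours also came from another run of numbers than those after PHx, and no label says what the numbers stand for. Any difference that goes with these numbers cannot be told apart from time after PHx either. All mice were male and on a C57/Bl6 background, and RNA was taken from whole liver tissue.

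During priming, cytokines of the IL-6 and TNF families act on hepatocytes through STAT3 and NF-κB, immediate-early transcription factors are made, and quiescent hepatocytes move from G0 towards G1. At the same time the liver makes acute-phase proteins, plasma proteins of the systemic response to injury, takes up fatty acids into transient lipid droplets, and adjusts the synthesis of bile acids and glucose to its smaller mass. DNA synthesis follows later. Genes of these processes were grouped in lists.

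Each library held between 14934069 and 18039701 counts assigned to genes. Values per liver are TMM-scaled CPM, counts of a gene scaled to the total of its library, and the livers of a group are biological replicates. For 0 hours the lowest and the highest of the 6 livers are given with their median, and for 6 hours livers 1 to 5 are given in that order. Of 14980 genes tested, the first principal component of the 11 livers held 53.32% of the variance and separated the time points, from 41.8 to 62.5 at 0 hours and from −71.1 to −45.4 at 6 hours. The second held 10.68% and set apart livers 2 and 3 at 6 hours, at −39.3 and −44.4, from livers 1, 4 and 5, at 46.1, 21.8 and 25.9. Values without livers 2 and 3 are therefore given beside the counts and genes that moved most when the pair was left out. Transcripts of mitochondrial genes took from 7.31 to 8.73% of counts at 0 hours and from 5.15 to 6.08% at 6 hours. The label of the tissue was borne out by its markers. The summed level of 18 hepatocyte markers was from 90541 to 114700.0 CPM at 0 hours and from 94718 to 111810.0 CPM at 6 hours. In bulk liver RNA, fewer cells of a type and less RNA per cell cannot be told apart.

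A gene was counted as called when its Benjamini-Hochberg adjusted p in the quasi-likelihood test of edgeR was under 0.05 and its log2 fold change was beyond 1 in either direction. By this rule 2480 of 14980 genes (16.6%) changed between 0 and 6 hours, of which 1177 (7.86%) rose and 1303 (8.7%) fell. The changes were large, since 427 genes rose and 383 fell by a log2 fold change of more than 2. In 1779 of the called genes the values of the 5 livers at 6 hours did not overlap those of the 6 livers at 0 hours, which held for 26.2% of all genes tested. Without the fold threshold 38.4% of genes passed and the order of the directions turned, with 3126 genes higher and 2632 lower, and 46.9% had an unadjusted p under 0.05. In WT livers 7.17% of genes rose and 8.4% fell, 37.4% passed without the fold threshold and 45.6% had an unadjusted p under 0.05.

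The gene with the smallest adjusted p was *Syt12*, of the synaptotagmin family of membrane-trafficking proteins. Its level was from 0.459 to 1.64 CPM (median 0.637) at 0 hours and 120.0, 146, 109, 208 and 163 CPM at 6 hours (log2 fold change 7.38 ± 0.35, edgeR adjusted p = 3.98e-16). *Nrg4*, a secreted ligand of the receptor ErbB4, lay from 1.86 to 6.01 CPM (median 2.399) at 0 hours and reached 85.2, 61.3, 60.8, 58.99 and 113 CPM at 6 hours (log2 fold change 4.61 ± 0.36, edgeR adjusted p = 8.05e-11). For both genes every liver at 6 hours was above every liver at 0 hours. Among the other genes with the smallest adjusted p were *Galnt2*, which starts mucin-type O-glycosylation, with a log2 fold change of 1.82, *Gfra1*, a co-receptor of the GDNF family, with 1.86, and *Ralgapa2*, a subunit of the Ral GTPase-activating complex, with 2.28. *Bmper*, a secreted modulator of BMP signalling, was near 0 at 0 hours, from 0 to 0.355 CPM (median 0.0642), and reached 30.8, 16.2, 12.8, 12.9 and 25.2 CPM (log2 fold change 7.30 ± 0.67, edgeR adjusted p = 1.7e-09). The plasma-membrane citrate carrier *Slc13a5* rose 26.3-fold, from 0.592 CPM at the median of 0 hours to values between 16.9 and 29.9 CPM.

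The deepest fall among abundant genes was that of *Hsd3b5*, a male-biased member of the 3β-hydroxysteroid dehydrogenase family. It was from 207 to 312 CPM (median 268) at 0 hours and 1.67, 1.55, 4.72, 2.91 and 0.958 CPM at 6 hours (log2 fold change −6.81 ± 0.97, edgeR adjusted p = 2.78e-06). Its relatives *Hsd3b2* and *Hsd3b3* fell with log2 fold changes of −5.78 and −3.47, and since these genes are close paralogs, the way reads were divided among them is uncertain. *Elovl3*, which elongates fatty acids, was from 857 to 1234 CPM (median 1067) at 0 hours and 50.2, 32.5, 74.1, 102 and 39.1 CPM at 6 hours (log2 fold change −4.13 ± 0.69, edgeR adjusted p = 2.76e-05). *Coq8a*, required for the synthesis of coenzyme Q, fell 27.3-fold, and was from 244 to 359.9 CPM (median 343) at 0 hours and 20.6, 5.705, 12.6, 13.5 and 6.95 CPM at 6 hours. No liver at 6 hours reached the lowest liver at 0 hours for any of these genes.

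**Figure D1:**
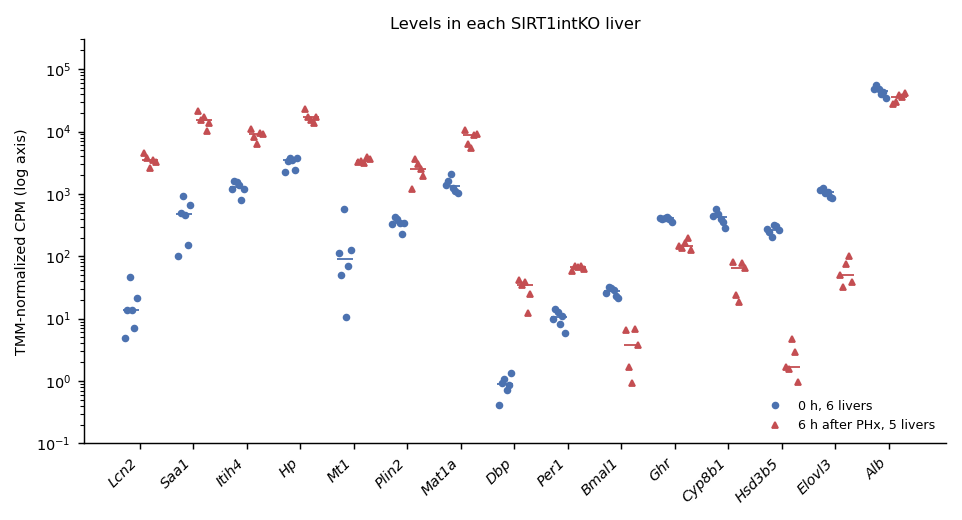
Levels of 15 genes in each SIRT1intKO liver as TMM-normalized CPM on a log axis, with circles for the 6 livers at 0 hours, triangles for the 5 livers at 6 hours in the order of their numbers, and short lines for the medians. *Lcn2* and *Dbp* lie far apart between the time points, while the ranges of *Alb* overlap.

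Acute-phase proteins were the list with the largest share of called members. Of 31 tested, 24 rose and 2 fell (16.6% of all genes were called), the median log2 fold change was 2.32, and in WT livers 25 rose and 2 fell. As a share of the counts of tested genes, the list took from 8.27 to 9.77% in livers at 0 hours and 24.0, 19.6, 19.3, 19.2 and 21.5% in livers 1 to 5 at 6 hours. Lipocalin 2 (*Lcn2*), which binds bacterial siderophores, was from 4.97 to 45.997 CPM (median 13.8) at 0 hours and 4524, 3724, 2573, 3446 and 3304 CPM at 6 hours (log2 fold change 7.63 ± 0.63, edgeR adjusted p = 2e-10). The inter-alpha-trypsin inhibitor chain *Itih4* was the member with the smallest adjusted p, from 803 to 1619 CPM (median 1306) at 0 hours and 10856, 8302, 6226, 9482 and 9125 CPM at 6 hours (log2 fold change 2.76 ± 0.18, edgeR adjusted p = 1.41e-12). The groups did not overlap for either gene. Serum amyloid A genes encode apolipoproteins of the acute phase. *Saa1* was from 99.8 to 940.5 CPM (median 481) at 0 hours and 21650.3, 15367, 17064, 10255 and 13483 CPM at 6 hours (log2 fold change 5.05 ± 0.57, edgeR adjusted p = 7.24e-08), and *Saa2* rose 106-fold and *Saa3* 76.04-fold. *Saa1* and *Saa2* are near-identical copies, so the division of counts between them is uncertain. *Hp*, the haemoglobin scavenger haptoglobin, was from 2269.7 to 3803 CPM (median 3468) at 0 hours and 22664, 17303, 15463, 13519.8 and 17057 CPM at 6 hours (log2 fold change 2.42 ± 0.22, edgeR adjusted p = 1.31e-09), and the fibrinogen chain *Fga* and the haem carrier *Hpx* rose 3.83-fold and 5.01-fold. *Cd14*, the co-receptor of lipopolysaccharide, was highest in liver 2, with 18.2, 98.03, 34.8, 24.3 and 25.4 CPM at 6 hours, and lay from 1.72 to 5.34 CPM (median 2.94) at 0 hours (log2 fold change 3.58 ± 0.81, edgeR adjusted p = 0.000805). The falling members were the cytokine receptor chain *Lifr* (log2 fold change −1.41 ± 0.28, edgeR adjusted p = 0.000233) and transthyretin (*Ttr*), a carrier of thyroid hormone and a negative acute-phase protein (log2 fold change −1.03 ± 0.25, edgeR adjusted p = 0.00161). Without liver 2 at 6 hours the log2 fold change of *Ttr* was −0.986, just inside the threshold.

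Promoters of acute-phase genes are shown because many of these genes rose together. The 250 bases before the transcription start of each gene were taken from RefSeq (build GRCm38.p6) and searched on both strands for the letters TTGCNNAA, an element bound by C/EBP factors. The element was found in 13 of the 24 acute-phase promoters in the table (54.2%), 10 of them among the 19 promoters of called members. It was in 9.55% of all 27025 promoters of the table. Other liver lists also held it, with 8 of 26 drug metabolism promoters (30.8%) and 4 of 14 hepatocyte marker promoters (28.6%). The 13 include related genes such as *Saa1* and *Saa2*. The element was thus not particular to genes that rose. The 3 promoters below belong to *Saa1* (chr7:46742981-46743230, minus strand), *Saa2* (chr7:46751583-46751832, plus strand) and *Lcn2* (chr2:32387740-32387989, minus strand), written 5′ to 3′ in the direction of the gene with the element in capitals, 182, 183 and 216 bases before the start. A match describes the letters of the window and is not by itself a binding site.

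Saa1: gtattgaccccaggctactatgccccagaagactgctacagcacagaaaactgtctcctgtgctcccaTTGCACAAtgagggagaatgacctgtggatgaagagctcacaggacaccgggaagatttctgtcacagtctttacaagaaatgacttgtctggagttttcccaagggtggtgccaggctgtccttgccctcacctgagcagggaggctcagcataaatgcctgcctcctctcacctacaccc
Saa2: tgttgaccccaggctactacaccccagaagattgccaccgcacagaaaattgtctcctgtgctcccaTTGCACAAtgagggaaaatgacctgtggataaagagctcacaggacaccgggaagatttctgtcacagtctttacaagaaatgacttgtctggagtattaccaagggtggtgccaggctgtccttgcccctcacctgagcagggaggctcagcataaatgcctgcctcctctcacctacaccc
Lcn2: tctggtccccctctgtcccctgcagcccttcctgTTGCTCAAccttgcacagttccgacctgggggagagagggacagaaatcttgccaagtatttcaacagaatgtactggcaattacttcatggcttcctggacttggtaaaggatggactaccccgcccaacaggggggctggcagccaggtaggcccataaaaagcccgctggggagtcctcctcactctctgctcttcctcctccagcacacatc

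*Mt1* and *Mt2*, the metallothioneins that bind zinc and copper, were from 10.7 to 575 CPM (median 91.3) and from 6.49 to 366 CPM (median 35.9) at 0 hours. At 6 hours *Mt1* was 3197, 3391, 3158, 3851 and 3633 CPM and *Mt2* 2106, 2526, 2278, 2749 and 2374 CPM, and the livers at 6 hours lay closer together than those at 0 hours (log2 fold change 4.46 ± 0.79, edgeR adjusted p = 5.29e-05 for *Mt1*). The zinc importer *Slc39a14* rose 3.38-fold.

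In the list of the IL-6 family and STAT3 signalling 5 of 25 tested genes rose and 2 fell, and the median log2 fold change was 0.11. The falling genes numbered 4 without liver 2 at 0 hours and 5 without liver 4 at 6 hours. *Stat3* itself, the transcription factor of this pathway, was from 77.5 to 132 CPM (median 91.9) at 0 hours and 208, 209, 199.8, 265 and 199 CPM at 6 hours (log2 fold change 1.15 ± 0.18, edgeR adjusted p = 1.19e-05). *Il1r1*, the receptor of interleukin-1, rose 3.75-fold, and the transcription factor *Cebpd* 3.34-fold. The feedback inhibitor *Socs3* was already high in 1 liver at 0 hours, from 11.3 to 174 CPM (median 30.3), and 121, 137, 110.4, 147 and 124 CPM at 6 hours, and it was not called (log2 fold change 1.21 ± 0.54, edgeR adjusted p = 0.0771). Without liver 3 at 0 hours its log2 fold change was 2.01 and it was called. In the list of TNF and NF-κB signalling 4 of 25 tested genes rose and none fell, a share of called genes near the 16.6% of all genes, and 2 rose without livers 2 and 3 at 6 hours.

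Immediate-early genes had mixed directions, with 6 of 22 tested rising and 1 falling (31.8% called, against 16.6% of all genes). In WT livers 1 rose and 4 fell. *Klf6*, a zinc-finger factor, was from 5.301 to 8.69 CPM (median 6.71) at 0 hours and 8.98, 31.1, 32.5, 15.9 and 29.8 CPM at 6 hours (log2 fold change 1.81 ± 0.45, edgeR adjusted p = 0.00214). *Dusp1*, a phosphatase that turns off MAP kinases, fell, from 14.7 to 169.9 CPM (median 61.2) at 0 hours and 13.02, 15.001, 16.7, 26.2 and 28.2 CPM at 6 hours (log2 fold change −1.92 ± 0.52, edgeR adjusted p = 0.00419), with overlapping ranges. *Jun* was from 13.4 to 46.6 CPM (median 25.4) and then 21.5, 69.02, 64.3, 55.3 and 50.9 CPM, and was not called (log2 fold change 0.96 ± 0.48, edgeR adjusted p = 0.113). Neither were *Fos*, with 1.99, 17.2, 12.3, 4.49 and 2.396 CPM at 6 hours (log2 fold change −0.96 ± 0.70, edgeR adjusted p = 0.289), nor *Myc*, with 5.39, 18.3, 18.9, 4.01 and 4.49 CPM (log2 fold change 0.03 ± 0.54, edgeR adjusted p = 0.97). For *Jun*, *Fos* and *Myc* liver 1 was below livers 2 and 3. Without livers 2 and 3, 2 immediate-early genes rose and 5 fell, *Fos* among them with a log2 fold change of −2.35.

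Among growth factors and their receptors *Nrg4*, *Areg* and *Plaur* rose, 3 of 19 tested genes (15.8%). Of all genes 16.6% were called and 7.86% rose. Without livers 2 and 3 only *Nrg4* was called in this list. Without liver 1 at 6 hours 1 member fell. *Plaur*, the urokinase receptor, was from 0.133 to 0.993 CPM (median 0.539) at 0 hours and 1.03, 4.72, 3.14, 2.85 and 2.46 CPM at 6 hours. The ErbB ligand *Areg* was at or near 0 at both times, with at most 0.704 CPM at 6 hours, and was not called without liver 2. *Hgf*, the ligand of *Met*, was from 0.721 to 1.801 CPM (median 1.41) at 0 hours and 2.44, 2.61, 1.19, 2.97 and 1.198 CPM at 6 hours (log2 fold change 0.58 ± 0.32, edgeR adjusted p = 0.15). *Met* (log2 fold change 0.09 ± 0.17, edgeR adjusted p = 0.729) and *Egfr* (log2 fold change 0.23 ± 0.24, edgeR adjusted p = 0.459) did not pass the test either. The list of TGF-β and activin signalling had 6 of 24 tested members rising and 1 falling (29.2% called, against 16.6% of all genes). Without livers 2 and 3 it had 4 rising. Activin subunits moved in opposite directions. *Inhbe*, the βE subunit, was from 13.97 to 28.7 CPM (median 17.8) at 0 hours and 86.2, 53.8, 37.1, 111 and 179.8 CPM at 6 hours (log2 fold change 2.31 ± 0.35, edgeR adjusted p = 6.01e-06), and *Inhba*, the βA subunit, was from 4.98 to 14.7 CPM (median 8.203) and then 3.72, 3.59, 2.14, 1.46 and 1.86 CPM (log2 fold change −1.84 ± 0.34, edgeR adjusted p = 7.84e-05). Follistatin (*Fst*), which binds activins, was from 0.888 to 3.48 CPM (median 2.101) at 0 hours and 8.21, 15.1, 18.6, 4.79 and 12.6 CPM at 6 hours (log2 fold change 2.43 ± 0.54, edgeR adjusted p = 0.000723), and the activin receptor *Acvr1b* rose 3.26-fold.

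In the integrated stress response, in which phosphorylated eIF2α raises translation of ATF4, 9 of 23 tested genes rose and none fell. The share was 39.1%, against 7.86% of all genes rising. In WT livers 4 rose and none fell. Without liver 1 at 6 hours 1 gene fell in SIRT1intKO livers. *Psat1*, of serine synthesis, was from 0.197 to 0.435 CPM (median 0.255) at 0 hours and 5.45, 7.18, 27.6, 1.15 and 4.91 CPM at 6 hours, highest in liver 3 (log2 fold change 5.02 ± 0.87, edgeR adjusted p = 4.17e-05). *Eif2ak3*, the eIF2α kinase of the endoplasmic reticulum, was from 7.603 to 12.8 CPM (median 10.1) and then 16.3, 26.6, 23.8, 29.3 and 27.1 CPM (log2 fold change 1.27 ± 0.21, edgeR adjusted p = 1.9e-05). The hormone *Fgf21* was from 0.0663 to 1.58 CPM (median 0.271) at 0 hours and 4.43, 3.73, 0.755, 0.789 and 9.88 CPM at 6 hours (log2 fold change 2.93 ± 0.82, edgeR adjusted p = 0.00525), and the ranges overlapped in livers 3 and 4. *Ddit3*, which encodes CHOP, was not called (log2 fold change 0.26 ± 0.29, edgeR adjusted p = 0.512). Of the 23 genes of chaperones and quality control in the endoplasmic reticulum, 1 rose and 1 fell (8.7% called, against 16.6% of all genes). *Dnajb9*, a co-chaperone of BiP, rose 2.86-fold and *Ern1*, the stress sensor IRE1α, fell 2.44-fold, while *Hspa5*, which encodes BiP, was not called (log2 fold change 0.40 ± 0.26, edgeR adjusted p = 0.221). The promoter of *Fgf21* (chr7:45615491-45615740, minus strand, RefSeq, build GRCm38.p6) is printed for the element TGATGNAA, bound by C/EBP and ATF dimers. The element was in the promoters of 5 of 23 genes of the list (21.7%), 3 of them called, and in 3.53% of all promoters, and lies here 139 bases before the start, in capitals and read on the opposite strand.

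Fgf21: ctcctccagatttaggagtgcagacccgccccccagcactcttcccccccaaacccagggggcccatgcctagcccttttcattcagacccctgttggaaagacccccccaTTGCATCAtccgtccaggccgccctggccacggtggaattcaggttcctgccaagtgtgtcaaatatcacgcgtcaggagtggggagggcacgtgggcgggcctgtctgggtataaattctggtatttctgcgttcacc

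Genes of the step from G0 to G1 did not move in 1 direction, with 3 of 24 tested rising and 4 falling. The share called was 29.2%, against 16.6% of all genes. *Ccne1*, cyclin E1, was from 0.263 to 0.955 CPM (median 0.626) at 0 hours and 3.66, 9.37, 10.2, 3.16 and 3.71 CPM at 6 hours (log2 fold change 3.23 ± 0.56, edgeR adjusted p = 4.43e-05). *Ccnd1*, cyclin D1, was from 8.52 to 28.997 CPM (median 12.1) and then 19.4, 44.8, 88.9, 33.98 and 48.7 CPM (log2 fold change 1.65 ± 0.48, edgeR adjusted p = 0.00648), and without livers 2 and 3 its log2 fold change was 1.16 (edgeR adjusted p = 0.103). *Ccng2*, an atypical cyclin of resting cells, was from 20.2 to 30.3 CPM (median 25.7) at 0 hours and 6.35, 4.86, 6.16, 5.28 and 7.13 CPM at 6 hours (log2 fold change −2.09 ± 0.21, edgeR adjusted p = 6.73e-09). Without livers 2 and 3, 1 gene rose and 2 fell. Among genes of DNA replication and mitosis 1 of 29 tested rose and 5 fell, and 3 fell without liver 1 or liver 6 at 0 hours. The share called was 20.7%, against 16.6% of all genes, of which 7.86% rose and 8.7% fell. *Ung*, which removes uracil from DNA, was from 2.25 to 5.53 CPM (median 4.11) and then 29.4, 24.4, 18.9, 28.04 and 35.8 CPM (log2 fold change 2.82 ± 0.30, edgeR adjusted p = 2.48e-08), and *Tk1*, thymidine kinase, was from 10.2 to 19.2 CPM (median 16.1) and then 3.53, 1.83, 2.58, 2.55 and 2.695 CPM (log2 fold change −2.51 ± 0.42, edgeR adjusted p = 2.91e-05). *Mki67*, a marker of cycling cells, was from 0.986 to 2.36 CPM (median 1.27) at 0 hours and 0.834, 0.282, 0.566, 1.09 and 0.839 CPM at 6 hours, and was not called (log2 fold change −0.92 ± 0.51, edgeR adjusted p = 0.155). Ribosome biogenesis, which builds the capacity for protein synthesis, had 10 of 30 tested genes rising and none falling. The share was 33.3%, against 7.86% of all genes rising, and 29 of the 30 had a log2 fold change above 0. In WT livers 8 rose. *Rrp1b* was from 1.95 to 4.72 CPM (median 3.18) at 0 hours and 8.02, 14.4, 14.1, 15.4 and 11.3 CPM at 6 hours (log2 fold change 2.02 ± 0.24, edgeR adjusted p = 1.66e-07), and *Heatr1*, of the small-subunit processome, rose 3.15-fold. The list stood at 10 to 12 rising genes when each liver was left out in turn, and at 8 without livers 2 and 3. It stood at 2 when the fold change itself was tested against the threshold.

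Of 19 tested genes of the circadian clock, a transcription loop in which BMAL1 with CLOCK or NPAS2 drives its own PER and CRY repressors, 8 rose and 4 fell, in both genotypes. The share called in SIRT1intKO livers was 63.2%, against 16.6% of all genes. The time of day at which livers were taken cannot be told apart from PHx. The PAR bZIP factor *Dbp* was from 0.414 to 1.37 CPM (median 0.886) at 0 hours and 40.9, 34.2, 39.2, 12.2 and 24.8 CPM at 6 hours (log2 fold change 5.07 ± 0.56, edgeR adjusted p = 5.48e-08). *Ciart*, a repressor of the loop, was from 0.199 to 0.655 CPM (median 0.416) and then 20.1, 22.6, 28.05, 13.9 and 21.98 CPM (log2 fold change 5.64 ± 0.75, edgeR adjusted p = 9.48e-07). *Per1* was from 5.84 to 14.5 CPM (median 10.5) and then 57.1, 69.9, 66.3, 70.6 and 61.6 CPM (log2 fold change 2.65 ± 0.45, edgeR adjusted p = 3.08e-05). For these genes every liver at 6 hours was above the highest liver at 0 hours. Of the activators, *Bmal1* and *Npas2* fell. *Bmal1* was from 21.7 to 32.5 CPM (median 27.4) at 0 hours and 6.54, 1.69, 0.943, 6.92 and 3.77 CPM at 6 hours (log2 fold change −2.76 ± 0.45, edgeR adjusted p = 2.16e-05), lowest in livers 2 and 3, and *Npas2* was from 6.14 to 11.8 CPM (median 8.26) at 0 hours and at most 0.189 CPM at 6 hours (log2 fold change −6.33 ± 0.58, edgeR adjusted p = 1.82e-09). *Clock* passed the adjusted p and not the fold threshold (log2 fold change −0.63 ± 0.21, edgeR adjusted p = 0.0188). The canonical E-box CACGTG, bound by these activators, was in the promoters of 5 of the 15 clock genes in the RefSeq table (33.3%). All 5 were called, and 9 of the 15 promoters belonged to called genes. The E-box was in 6.05% of all promoters, in 8.38% of those of tested genes and in 23.5% of those of the immediate-early list. The promoters of *Per1* (chr11:69098699-69098948, plus strand, the first of 2 starts listed) and *Ciart* (chr3:95882229-95882478, minus strand), both from build GRCm38.p6, are printed with the E-box in capitals, which lies 166 bases before the start in *Per1*, and in *Ciart* occurs 3 times, the nearest 44 bases before the start.

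Per1: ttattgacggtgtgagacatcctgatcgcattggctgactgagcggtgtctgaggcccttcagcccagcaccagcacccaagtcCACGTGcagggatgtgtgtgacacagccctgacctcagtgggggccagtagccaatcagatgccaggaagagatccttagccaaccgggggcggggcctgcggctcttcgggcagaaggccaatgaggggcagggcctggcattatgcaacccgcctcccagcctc
Ciart: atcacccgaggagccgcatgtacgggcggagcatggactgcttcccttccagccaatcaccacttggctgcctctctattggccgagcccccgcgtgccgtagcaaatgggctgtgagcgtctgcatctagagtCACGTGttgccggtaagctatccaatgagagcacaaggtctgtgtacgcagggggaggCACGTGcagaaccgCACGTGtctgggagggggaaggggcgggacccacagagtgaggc

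**Figure D2:**
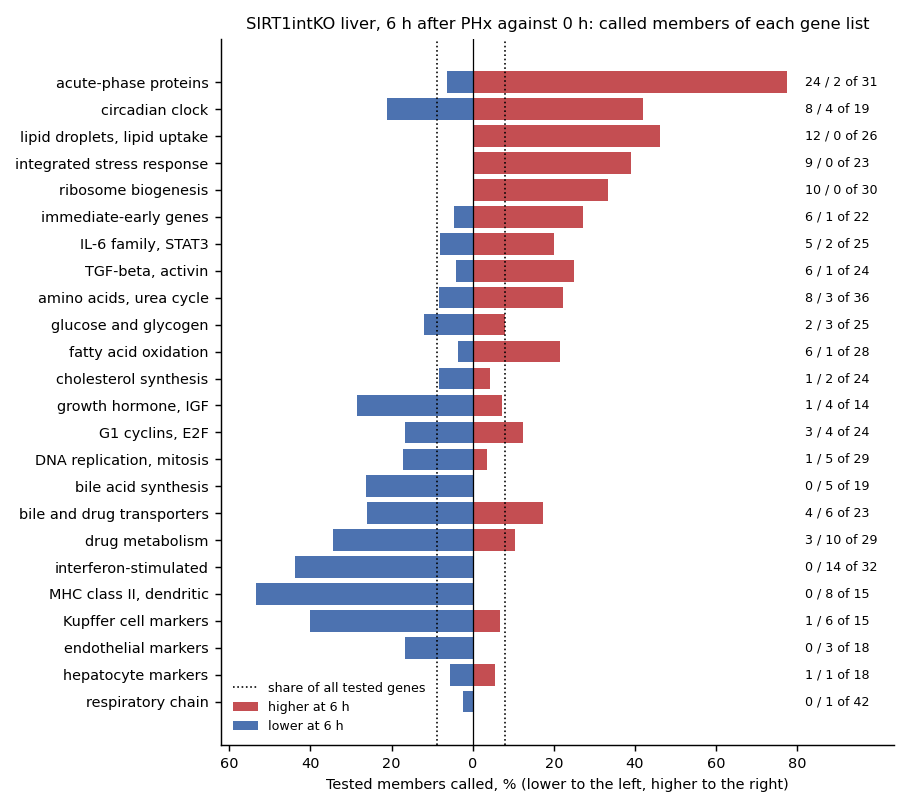
Percent of the tested members of 24 gene lists that were called higher (red, to the right) or lower (blue, to the left) in SIRT1intKO livers 6 hours after PHx against 0 hours, with the number of higher and lower members printed at the right and the shares of all 14980 genes as dotted lines. Acute-phase, clock and lipid droplet genes stand above the share of higher genes, and interferon-stimulated and MHC class II genes above the share of lower genes.

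Of 26 tested genes of lipid droplets and lipid uptake 12 rose and none fell (46.2%, against 7.86% of all genes rising). Without livers 2 and 3 also 12 rose. With DESeq2, with upper-quartile scaling, with only the groups compared in the fit, and without liver 4 at 6 hours, 1 member was called lower. *Cidec*, which fuses lipid droplets, was from 0.473 to 1.68 CPM (median 1.06) at 0 hours and 40.8, 131, 74.8, 39.3 and 119 CPM at 6 hours (log2 fold change 6.33 ± 0.74, edgeR adjusted p = 1.13e-07). The lysophospholipid carrier *Mfsd2a* was from 5.4997 to 16.6 CPM (median 11.4) and then 195, 372, 295, 241 and 353 CPM (log2 fold change 4.70 ± 0.56, edgeR adjusted p = 1.53e-07), and *Gpat3*, which starts the synthesis of triglycerides, from 1.99 to 2.98 CPM (median 2.15) and then 28.2, 44.4, 44.7, 27.3 and 36.1 CPM (log2 fold change 4.00 ± 0.25, edgeR adjusted p = 4.29e-13). *Plin2*, the main coat protein of hepatic droplets, was from 230.1 to 430.1 CPM (median 342) at 0 hours and 1218, 3613, 3068, 2476 and 1966 CPM at 6 hours (log2 fold change 2.85 ± 0.32, edgeR adjusted p = 8.09e-08). All 5 livers at 6 hours exceeded all livers at 0 hours in each. The fatty acid transporter *Cd36* was from 7.17 to 14.2 CPM (median 8.94) and then 27.4, 11.4, 4.28, 11.04 and 11.8 CPM and was not called (edgeR adjusted p = 0.349). In fatty acid oxidation 6 of 28 tested genes rose and 1 fell, and none fell without liver 1 at 6 hours. *Pdk4*, which turns pyruvate away from oxidation, was from 3.02 to 8.28 CPM (median 4.25) at 0 hours and 12.9, 49.4, 29.3, 19.9 and 28.8 CPM at 6 hours (log2 fold change 2.46 ± 0.57, edgeR adjusted p = 0.000996). The carnitine transporter *Slc22a5* was from 11.1 to 19.1 CPM (median 15.6) and then 127, 92.5, 66.9, 137 and 137 CPM (log2 fold change 2.86 ± 0.21, edgeR adjusted p = 1.65e-11). The apolipoprotein *Apoa4* rose 12.5-fold, and ranged from 548 to 2989 CPM at 6 hours. *Fasn*, fatty acid synthase, was not called (log2 fold change −0.30 ± 0.37, edgeR adjusted p = 0.547), while WT livers gave −1.12 (edgeR adjusted p = 0.0125), and the interaction, 0.82 (unadjusted p = 0.112, edgeR adjusted p = 0.99995), was not called. Among 24 genes of cholesterol synthesis 1 rose and 2 fell (12.5% called, against 16.6% of all genes), and 13 fell in WT livers. For the interaction no member was called, and 3 had an unadjusted edgeR p under 0.05. When livers 2 and 3 were left out none rose and 4 fell, without liver 4 or 5 at 0 hours or liver 5 at 6 hours none rose, and without liver 4 at 6 hours 1 fell. *Sc5d*, a late enzyme of the pathway, was from 190.4 to 398 CPM (median 315) at 0 hours and 128, 68.2, 86.7, 75.2 and 93.9 CPM at 6 hours (log2 fold change −1.76 ± 0.21, edgeR adjusted p = 2.05e-07).

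In glucose and glycogen metabolism 2 of 25 tested genes rose, 3 fell and 20 were not called. The falling genes numbered 5 without liver 5 or 6 at 0 hours, or without liver 1 or 3 at 6 hours, and 1 gene rose without liver 5 at 0 hours or liver 4 at 6 hours. *Ppp1r3c*, a glycogen-targeting subunit of protein phosphatase 1, was from 26.8 to 152 CPM (median 52.7) at 0 hours and 14.6, 2.54, 3.65, 7.404 and 3.95 CPM at 6 hours (log2 fold change −3.36 ± 0.76, edgeR adjusted p = 0.000847). Its relative *Ppp1r3b* fell 6.66-fold, and glycogen phosphorylase *Pygl* fell 2.596-fold. *Ldha*, lactate dehydrogenase A, rose 2.62-fold, and *Pck1*, of gluconeogenesis, was from 1709.6 to 4188 CPM (median 2639) and then 3257, 3198, 2771, 3136 and 3545 CPM (log2 fold change 0.14 ± 0.26, edgeR adjusted p = 0.694). Of amino acid and urea cycle genes 8 of 36 rose and 3 fell (30.6% called, against 16.6% of all genes). *Mat1a*, which makes S-adenosylmethionine, was from 1018 to 2079.7 CPM (median 1322) at 0 hours and 10461, 6320.2, 5530.2, 8741 and 9092 CPM at 6 hours (log2 fold change 2.51 ± 0.27, edgeR adjusted p = 3.76e-08). *Aass*, of lysine breakdown, was from 215 to 299 CPM (median 279.7) and then 1487, 1765, 1669, 1258 and 1426 CPM (log2 fold change 2.51 ± 0.29, edgeR adjusted p = 1.13e-07), and *Sds*, serine dehydratase, rose 3.61-fold. *Bhmt*, which remethylates homocysteine, was from 4542 to 7587 CPM (median 4878) at 0 hours and 1409, 739, 1268, 1833 and 592 CPM at 6 hours (log2 fold change −2.26 ± 0.54, edgeR adjusted p = 0.00142). *Cps1*, the entry enzyme of the urea cycle, was not called (log2 fold change 0.25 ± 0.30, edgeR adjusted p = 0.529). In the growth hormone and IGF list 1 of 14 genes rose and 4 fell (35.7% called, against 16.6% of all genes). None rose without liver 4 or liver 5 of either time point. The growth hormone receptor *Ghr* was from 354 to 423 CPM (median 407) and then 149, 136, 163, 196 and 128 CPM (log2 fold change −1.38 ± 0.27, edgeR adjusted p = 0.000156), *Igfals*, the partner of circulating IGF, fell 5.47-fold, and *Igf1* was not called (log2 fold change 0.14 ± 0.21, edgeR adjusted p = 0.613).

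In bile acid synthesis, 5 of 19 tested genes fell and none rose (26.3%), against 16.6% of all genes called and 8.7% falling. *Cyp7a1*, the rate-limiting enzyme of the classical pathway, was from 14.5 to 55.9 CPM (median 28.7) at 0 hours and 1.603, 0.423, 0.566, 0.789 and 0.419 CPM at 6 hours (log2 fold change −5.41 ± 1.10, edgeR adjusted p = 0.000265). *Akr1d1*, a reductase of the steroid ring, was from 62.1 to 106 CPM (median 87.9) and then 28.7, 21.3, 36.2, 25.9 and 16.2 CPM (log2 fold change −1.74 ± 0.26, edgeR adjusted p = 5.34e-06), and *Hsd3b7*, which acts after 7α-hydroxylation, from 486 to 581 CPM (median 525) and then 215, 139.5, 138, 230.1 and 173 CPM (log2 fold change −1.56 ± 0.22, edgeR adjusted p = 2.21e-06). The groups did not overlap in these genes. *Cyp8b1*, which sets the share of cholic acid, was from 288 to 563 CPM (median 426) at 0 hours and 81.96, 23.8, 18.6, 78.7 and 64.03 CPM at 6 hours (log2 fold change −2.98 ± 1.07, edgeR adjusted p = 0.0276), and without livers 2 and 3 its log2 fold change was −2.52 (edgeR adjusted p = 0.156). It also lost its call without liver 2 or liver 3 alone. Transporters of bile acids, drugs and water had 4 of 23 tested members rising and 6 falling (43.5% called, against 16.6% of all genes). When livers 2 and 3 were left out 2 rose and 5 fell, and without liver 5 at 6 hours 3 fell. *Aqp8*, a water channel of the canalicular membrane, was from 49.5 to 91.4 CPM (median 72.8) and then 1.73, 12.04, 7.17, 5.098 and 4.43 CPM (log2 fold change −3.55 ± 0.38, edgeR adjusted p = 2.26e-08). The sinusoidal bile acid importer *Slc10a1* fell 2.17-fold, and *Abcb11*, the canalicular bile salt export pump, was from 462 to 509.9 CPM (median 492) and then 184, 289, 431, 204 and 209 CPM, highest in liver 3, and did not pass the fold threshold (log2 fold change −0.89 ± 0.26, edgeR adjusted p = 0.00757). Without liver 3 at 6 hours its log2 fold change was −1.14 and it was called.

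Drug metabolism had 10 of 29 tested genes falling and 3 rising, and in WT livers 16 falling and 3 rising. The share called in SIRT1intKO livers was 44.8%, against 16.6% of all genes. *Cyp1a2*, a pericentral cytochrome P450, was from 500.2 to 659.6 CPM (median 622) at 0 hours and 109, 105, 199, 296 and 118 CPM at 6 hours (log2 fold change −1.86 ± 0.43, edgeR adjusted p = 0.00112). The glucuronosyltransferase *Ugt2b1* was from 515 to 886 CPM (median 688) and then 64.8, 82.8, 205, 276 and 206 CPM (log2 fold change −2.08 ± 0.50, edgeR adjusted p = 0.00138), and the glutathione transferase *Gsta3* fell 3.68-fold. *Por*, which passes electrons to all microsomal cytochromes P450, moved the other way, from 125 to 267 CPM (median 188) at 0 hours and 769, 763, 873, 673 and 819.7 CPM at 6 hours (log2 fold change 2.03 ± 0.19, edgeR adjusted p = 1.7e-09). *Sult1a1*, a phenol sulfotransferase, rose 3.26-fold. As a share of the counts of tested genes the list held from 2.35 to 2.86% at 0 hours and 1.21, 1.28, 1.55, 1.60 and 1.17% at 6 hours. Of 16 tested liver transcription factors 2 rose and 3 fell (31.2% called, against 16.6% of all genes). Without livers 2 and 3, 1 rose and 1 fell. In WT livers 1 rose and none fell, and no member was called for the interaction. *Hnf4a*, which maintains the hepatocyte state, was not called. It was from 453 to 659 CPM (median 506) and then 576, 773, 812, 630.3 and 521 CPM (log2 fold change 0.31 ± 0.16, edgeR adjusted p = 0.134). *Prox1* was among the rising members and rose 2.45-fold. *Nnmt*, which methylates nicotinamide, was from 107 to 201 CPM (median 139.5) at 0 hours and 1313, 603, 546, 1231 and 1119 CPM at 6 hours (log2 fold change 2.70 ± 0.34, edgeR adjusted p = 3.58e-07), and the mitochondrial NAD kinase *Nadk2* and the sirtuin *Sirt4* fell 2.57-fold and 2.4003-fold. Of 42 genes of the respiratory chain 39 had log2 fold changes below 0, with a median of −0.26. Of these 42 genes 1 was called (2.38%, against 16.6% of all genes).

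**Figure D3:**
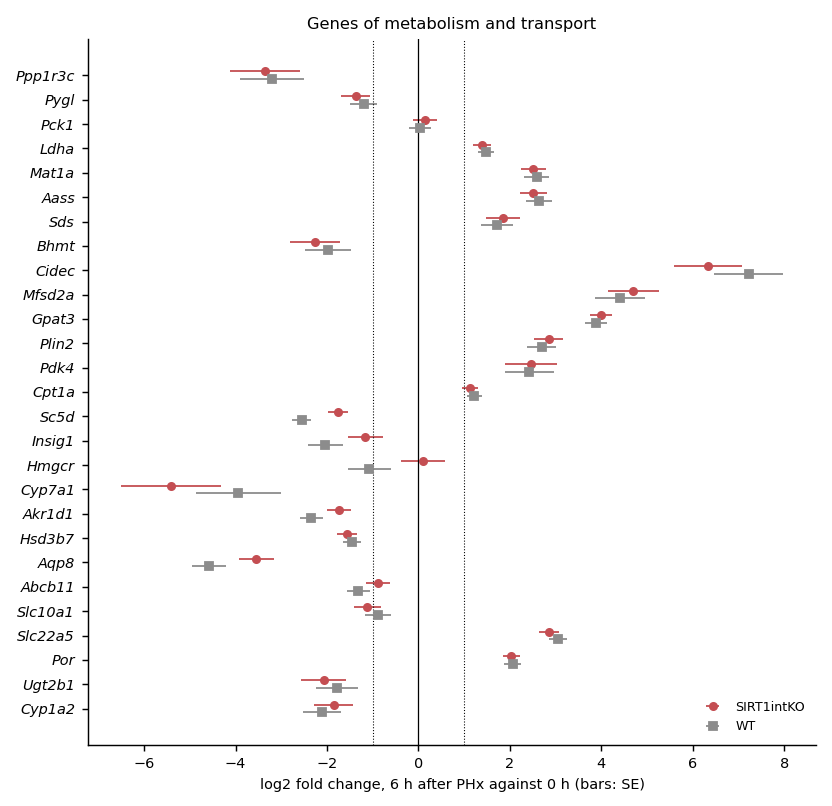
Log2 fold change, 6 hours after PHx against 0 hours, of 27 genes of metabolism and transport in SIRT1intKO (red circles) and WT livers (grey squares), with bars for the SE and dotted lines at log2 fold changes of −1 and 1. *Cidec* lies farthest to the right and *Cyp7a1* farthest to the left in SIRT1intKO livers, and *Pck1* lies near 0 in both genotypes.

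Among genes induced by interferon and genes of antigen presentation, the members that were called were lower at 6 hours. Of 32 tested interferon-stimulated genes 14 fell, 18 were not called and none rose, 31 had log2 fold changes below 0, and the median was −0.89, against 15 falling in WT livers with a median of −0.95. The falling share in SIRT1intKO livers was 43.8%, against 8.7% of all genes. Without livers 2 and 3, 8 fell, and 2 fell when the fold change itself was tested against the threshold. *Gbp6*, a guanylate-binding protein, was from 16.2 to 20.8 CPM (median 18.5) at 0 hours and 1.67, 2.61, 1.01, 3.64 and 0.958 CPM at 6 hours (log2 fold change −3.22 ± 0.55, edgeR adjusted p = 3.03e-05), and *Ifit3* was from 8.07 to 12.7 CPM (median 11.2) and then 2.63, 2.96, 2.14, 5.16 and 2.22 CPM (log2 fold change −1.83 ± 0.33, edgeR adjusted p = 6.88e-05). Of 15 genes of antigen presentation by MHC class II and of dendritic cells 8 fell (53.3%, against 8.7% of all genes). The other 7 were not called, 3 of them with log2 fold changes above 0. The median was −1.05. In WT livers 1 fell, with a median of −0.64, and no member was called for the interaction. In SIRT1intKO livers 4 fell either without livers 2 and 3 or without liver 6 at 0 hours. None was called when the fold change itself was tested against the threshold. *Cd74*, the invariant chain, was from 39.99 to 129 CPM (median 66.2) and then 32.6, 24.02, 25.7, 40.96 and 26.4 CPM (log2 fold change −1.28 ± 0.28, edgeR adjusted p = 0.000678), and overlapped in liver 4.

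Kupffer cells are the resident macrophages of the liver. Of 15 tested markers of Kupffer cells and macrophages 6 fell, 1 rose and 8 were not called (46.7% called, against 16.6% of all genes). Without livers 2 and 3 again 6 fell, and none rose. The log2 fold changes of 14 were below 0, the median was −0.84, and the rising member had 1.54. When the fold change itself was tested against the threshold, none of the 15 markers was called. Their summed level was from 291 to 533 CPM at 0 hours and from 163 to 265 CPM at 6 hours, without overlap, and none of the 15 was called in WT livers. *Csf1r*, the receptor of macrophage colony-stimulating factor, was from 19.7 to 36.3 CPM (median 26.5) at 0 hours and 12.5, 13.1, 12.8, 11.9 and 8.03 CPM at 6 hours (log2 fold change −1.22 ± 0.26, edgeR adjusted p = 0.000426). *Folr2* was from 4.995 to 8.32 CPM (median 5.86) and then 1.67, 1.69, 2.52, 3.09 and 1.497 CPM (log2 fold change −1.54 ± 0.35, edgeR adjusted p = 0.000954), and *Timd4*, a receptor for phosphatidylserine on resident Kupffer cells, was from 3.62 to 7.82 CPM (median 4.26) and then 1.73, 2.68, 2.58, 1.46 and 1.14 CPM (log2 fold change −1.32 ± 0.44, edgeR adjusted p = 0.0171). The interaction of genotype and time was not called for any of these, with −0.55 (unadjusted p = 0.128, edgeR adjusted p = 0.99995) for *Csf1r* and −1.06 (unadjusted p = 0.0829, edgeR adjusted p = 0.99995) for *Timd4*. *Cd4* was from 3.25 to 6.05 CPM (median 4.11) at 0 hours and 0.257, 0.0704, 0.126, 0.485 and 0.1797 CPM at 6 hours (log2 fold change −4.20 ± 0.50, edgeR adjusted p = 1.55e-07). Of 18 endothelial markers 3 fell (16.7%), against 16.6% of all genes called and 8.7% falling. They included *Kdr*, the VEGF receptor 2, which fell 2.299-fold, and *Dll4*, a Notch ligand, which fell 2.96-fold, while *Pecam1* was not called (log2 fold change −0.04 ± 0.21, edgeR adjusted p = 0.895). *Itgam*, a myeloid integrin, was from 0.328 to 0.993 CPM (median 0.4801) and then 2.44, 2.18, 2.39, 2.91 and 2.99 CPM (log2 fold change 2.07 ± 0.46, edgeR adjusted p = 0.000665). Of 9 tested neutrophil markers 1 rose (11.1%), against 16.6% of all genes called and 7.86% rising. The tested markers summed to between 4.86 and 22.7 CPM at 0 hours and between 11.5 and 19.7 CPM at 6 hours. *S100a8* was from 0.723 to 4.97 CPM (median 2.02) and then 2.89, 2.75, 3.58, 4.19 and 1.62 CPM (log2 fold change 0.37 ± 0.90, edgeR adjusted p = 0.777). *Ly6g* and *Camp* were too sparse to be tested, with no count at 0 hours and at most 1 count in any liver at 6 hours. Of 10 monocyte markers 3 rose, with sums from 10.6 to 20.5 CPM at 0 hours and from 12.2 to 17.96 CPM at 6 hours, and of 7 lymphocyte markers 3 fell, 5 without liver 4 at 6 hours and 1 without livers 2 and 3. Of 19 markers of stellate cells and fibroblasts 3 rose (15.8%), against 16.6% of all genes called and 7.86% rising. Of 9 markers of cholangiocytes 1 rose and 1 fell (22.2%), and none rose without livers 2 and 3. Of 5 markers of red cells none was called. Of 18 chemokine genes 2 rose and 2 fell (22.2%, against 16.6% of all genes), and none was called without livers 2 and 3. The part of changes in cell number in these values was not tested.

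**Figure D4:**
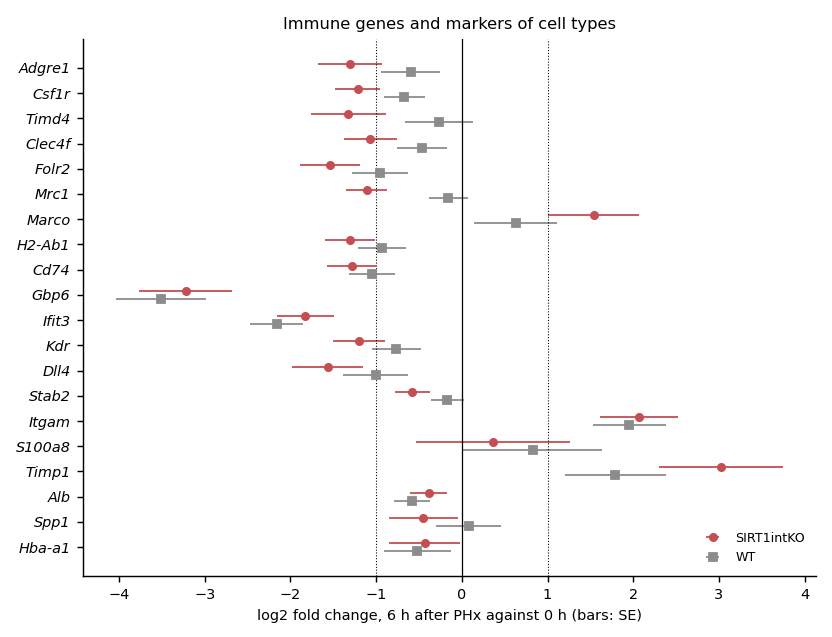
Log2 fold change, 6 hours after PHx against 0 hours, of 20 immune genes and markers of cell types in SIRT1intKO (red circles) and WT livers (grey squares), with bars for the SE and dotted lines at −1 and 1. Most Kupffer cell markers lie lower in SIRT1intKO than in WT livers, without a called interaction, and *Itgam* lies above 1 in both genotypes.

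Over all 9099 tested genes with a mean of at least 5 CPM, the median SD of log2 CPM was 0.20 among the 6 livers at 0 hours and 0.21 among the 5 at 6 hours, and in 57.2% of them the SD was larger at 6 hours. In the 1192 called genes among them the median SD was 0.29 at 0 hours and 0.41 at 6 hours, and in 854 (71.6%) the SD was larger at 6 hours. For the genes that follow, livers 2 and 3 stood on one side and livers 1, 4 and 5 on the other. *Nr0b2*, which encodes the repressor SHP induced by the bile acid receptor FXR, was from 30.7 to 66.9 CPM (median 48.1) at 0 hours and 10.4, 91.3, 99.4, 3.88 and 7.19 CPM at 6 hours (log2 fold change −0.24 ± 0.54, edgeR adjusted p = 0.751), and from 4.72 to 13.3 CPM in WT livers at 6 hours. Without livers 2 and 3 its log2 fold change was −2.83 and it was called. *Abcb1a*, a drug exporter, was from 0.265 to 1.302 CPM (median 0.518) at 0 hours and 1.48, 11.8, 18.5, 0.971 and 1.98 CPM at 6 hours (log2 fold change 3.45 ± 0.71, edgeR adjusted p = 0.000286), and without the pair its log2 fold change was 1.20 (edgeR adjusted p = 0.198). *Slc51b*, a chain of the basolateral bile acid exporter, was from 0.478 to 1.801 CPM (median 0.564) and then 0.128, 11.2, 15.3, 0.303 and 1.26 CPM (log2 fold change 2.76 ± 0.95, edgeR adjusted p = 0.021), and its log2 fold change was −0.55 without the pair and not called without liver 2 or liver 3 alone. *Egr1*, an immediate-early factor, was from 101 to 198 CPM (median 163) and then 26.04, 191, 233, 39.9 and 47.8 CPM (log2 fold change −0.57 ± 0.57, edgeR adjusted p = 0.45), and without the pair it fell with a log2 fold change of −2.10. *Gdf15*, a stress hormone, was from 2.45 to 18.5 CPM (median 5.23) and then 2.95, 64.2, 84.9, 9.53 and 15.3 CPM (log2 fold change 2.05 ± 0.80, edgeR adjusted p = 0.0403), with a log2 fold change of 0.09 without the pair. It also lost its call without either of livers 2 and 3, or without liver 1, 4, 5 or 6 at 0 hours. In contrast, *A2m*, α2-macroglobulin, was from 0.118 to 0.745 CPM (median 0.297) at 0 hours and 27.8, 0.493, 0.755, 58.8 and 27.3 CPM at 6 hours (log2 fold change 5.91 ± 1.01, edgeR adjusted p = 3.16e-05), so that livers 2 and 3 stayed at or beside the range of 0 hours. *Cyp17a1*, of steroid synthesis, was from 2.19 to 7.097 CPM (median 3.39) and then 197, 7.47, 9.37, 39.9 and 145 CPM (log2 fold change 4.25 ± 0.77, edgeR adjusted p = 6.93e-05), and *Hamp*, hepcidin, from 287 to 747 CPM (median 522) and then 2011, 805, 454, 2487 and 2004 CPM (log2 fold change 1.54 ± 0.40, edgeR adjusted p = 0.00291). Of the 2480 called genes 1760 were also called without livers 2 and 3, a fit with 2016 called genes in all. What sets these livers apart was not tested.

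**Figure D5:**
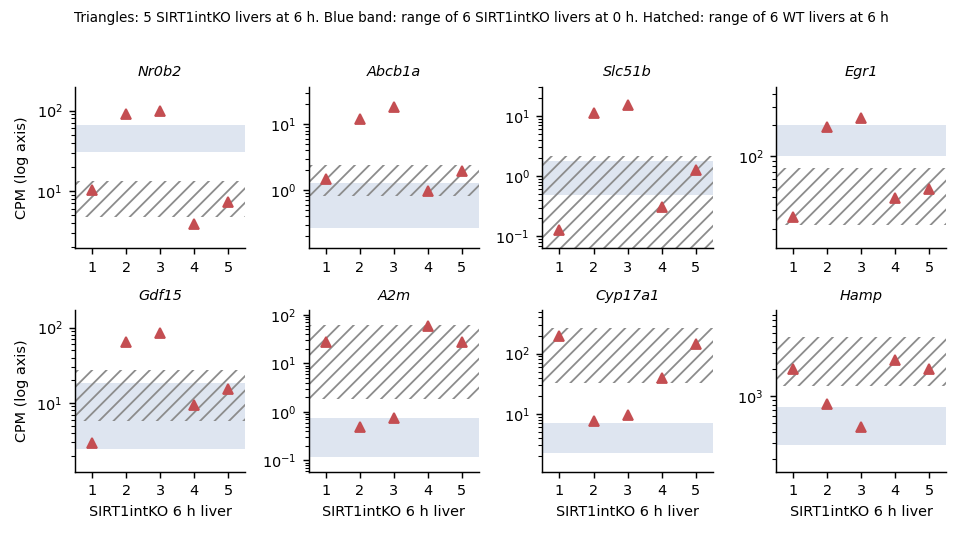
Levels of 8 genes in the 5 SIRT1intKO livers at 6 hours (triangles, liver number on the horizontal axis, CPM on a log axis), with the range of the 6 SIRT1intKO livers at 0 hours as a blue band and that of the 6 WT livers at 6 hours hatched, cut at the lower edge for *Slc51b*. Livers 2 and 3 lie above the others for the first 5 genes and below them for *A2m*, *Cyp17a1* and *Hamp*.

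The change between 0 and 6 hours was compared with that in WT livers by the interaction of genotype and time. In it, livers at 6 hours were set against livers of other animals of the same genotype at 0 hours. In WT livers 2332 genes (15.6%) were called. No gene of 14980 was called for the interaction by edgeR, 457 (3.05%) had an unadjusted p under 0.05, and DESeq2 called 2 sparse transcripts. The genes called in SIRT1intKO livers with the smallest interaction p included *Mrc1*, the mannose receptor of macrophages and sinusoidal endothelium. It was from 18.02 to 33.4 CPM (median 25.5) at 0 hours and 13.9, 8.87, 9.37, 17.1 and 9.52 CPM at 6 hours (log2 fold change −1.11 ± 0.24, edgeR adjusted p = 0.000591), against −0.16 in WT livers, an interaction of −0.95 (unadjusted p = 0.00695, edgeR adjusted p = 0.99995). Without livers 2 and 3 its log2 fold change in SIRT1intKO livers was −0.94. *Rasal2*, a Ras GTPase-activating protein, was from 6.76 to 23.8 CPM (median 10.3) and then 5.19, 5.28, 4.72, 5.704 and 5.27 CPM (log2 fold change −1.28 ± 0.25, edgeR adjusted p = 0.00018), against −0.07 in WT livers and an interaction of −1.21 (unadjusted p = 0.0013, edgeR adjusted p = 0.99995). For *Nr0b2*, whose value rested on livers 2 and 3, the interaction was 2.35 (unadjusted p = 0.00373, edgeR adjusted p = 0.99995). *Sc5d* had −1.76 in SIRT1intKO and −2.56 in WT livers, an interaction of 0.79 (unadjusted p = 0.00804, edgeR adjusted p = 0.99995). None passed the correction.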

How the data were processed

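Poly(A) RNA of whole liver was sequenced from stranded libraries, and per the submitters' processing notes reads were aligned with STAR and quantified with Salmon on GRCm39. The authors deposited expected counts per gene for 78298 genes, not normalized, and 4.975% of the values were not whole and were rounded here. Of 35 columns of values, 1 matched no label and was not used. The letter x was missing from gene names, and 1316 symbols were restored through gene identifiers.

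Genes passing filterByExpr (14980) were tested with the quasi-likelihood test of edgeR 4.0.16 in R 4.3.3, with TMM scaling and 1 mean for each of the 6 groups of genotype and time over all 34 libraries. Adjusted p-values are Benjamini-Hochberg values over all genes tested, the threshold was 0.05 with an absolute log2 fold change over 1, and errors of fold changes are SEs. The common biological coefficient of variation was 0.3019. DESeq2 1.42.0, the tool of the study, was an alternative. Values per liver are TMM-scaled CPM with no prior count, and log2 CPM for SDs and principal components carried a prior count of 2.

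The genes named were key members of each list, up to 6 further called members of each list with a mean of at least 1 CPM, the 15 called genes of largest fold change in each direction that averaged at least 5 CPM and did not overlap between times, the 10 with the smallest adjusted p, the 6 with the smallest interaction p, the 6 with the largest spread at 6 hours, and list members with an absolute log2 fold change under 0.25. From these the text takes those that best describe each list. The comparison, the lists and the genes were chosen with earlier results of these data known, and lists are described by counts, without a test. Some members of the lists are not reported here and are left out of the counts. Alternatives were another tool, scaling, filter, threshold and set of libraries, a replicate block and leaving out each liver. Promoters are those of RefSeq on GRCm38.p6, and expression was not read by coordinates.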

Additional observations from a re-analysis of the deposited data

Results flagged for a closer look

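In 258 sets of livers of 1 time point, made of the genes named and of library measures, 11 had a liver that stood apart from the others by Dixon's criterion on log2 CPM, where chance gives about 1 in 20. At 6 hours *Csf1r* was lowest in liver 5, at 8.03 CPM, *Jun* lowest in liver 1, at 21.5 CPM, and *Stat3* highest in liver 4, at 265 CPM. At 0 hours liver 2 was highest for *Apoa4*, at 231 CPM, and for *Fasn*, at 287 CPM, liver 4 for *Gpat3*, at 2.98 CPM, and liver 5 for *Sirt4*, at 10.7 CPM, and *Ttr*, at 8439 CPM. Liver 6 at 0 hours was lowest for *Ghr*, at 354 CPM, highest for *Mki67*, at 2.36 CPM, and the only one with a count of *Areg*, at 0.0621 CPM. No liver at either time was set apart by its total count or its share of mitochondrial transcripts.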

How the results depend on the processing

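The number of called genes between 0 and 6 hours in SIRT1intKO livers, 2480, was 2561 with DESeq2, 2468 with the size factors of DESeq2, 2496 with upper-quartile scaling and 2612 when every gene detected by at least 1 count was kept. It was 1268 under a filter of 10 or more counts in all libraries, which tests fewer genes, 701 when the fold change itself was tested against the threshold (glmTreat) and 5758 without a fold threshold. Of the 2480 genes 1177 were higher and 1303 lower, against 386 and 315 with glmTreat, 3126 and 2632 without a fold threshold, and 1031 and 1465 with upper-quartile scaling. The same filter and thresholds gave 1183, 749 and 5604 in WT livers. With glmTreat the called members of most lists in SIRT1intKO livers also became fewer. It left 1 rising gene of the integrated stress list and 1 of the immediate-early list. In drug metabolism it left 3 rising and 1 falling. The acute-phase list kept 22 rising genes and the lipid droplet list 8. Leaving out each liver in turn gave from 2225 to 2663 called genes in SIRT1intKO and from 2180 to 2356 in WT livers, and 1744 of the 2480 genes (70.32%) were called in every such fit of SIRT1intKO livers. The interaction gave 0 called genes in every fit by edgeR and 2 with DESeq2, *Gm45837* and *Rpl35a-ps3*, named after their values were seen. Leaving out livers 2 and 3 together, an alternative chosen after seeing the data, gave 2016 called genes. With the replicate number as a block, 2376 genes were called in SIRT1intKO and 2290 in WT livers. The numbers were not found to pair the livers, since the correlations of deviations of same-numbered livers lay between −0.039 and 0.0673 over 5 pairs and 1 of 5 livers correlated best with its own number.

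Uncalled genes near 0 changed sign. *Myc* had −0.062 with upper-quartile scaling, −0.0244 under the filter of 10 counts and −1.13 without livers 2 and 3, and without liver 2 or 3 at either time it was also negative. Without livers 2 and 3 *Met* had −0.1217 and *Pecam1* 0.0638. Over the fits without 1 liver the values ran from −0.3165 to 0.2012 for *Myc*, from −0.0327 to 0.1601 for *Met*, from −0.1757 to 0.0348 for *Pecam1*, from −0.0498 (without liver 1 at 6 hours) to 0.6639 for *Cd36* and from −0.8343 to 0.0153 for *Nr0b2*. *Slc51b*, a called gene, went to −0.55 without livers 2 and 3. The causes were not tested. Genes under about 1 CPM rest on few counts, and the depth limits what can be said of them.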
